A study of Mus musculus with 8 samples.

Results

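The mitochondrial genome and the nuclear genes that copy, transcribe, process and translate it were followed in myotubes formed from C2C12, a mouse muscle precursor line whose cells stop dividing and fuse in low serum. The set held 40 genes of the 23684 named on the array: the 13 protein-coding genes of the mitochondrial genome and 27 nuclear genes. The genes were chosen by name, with earlier results of these data known. The 27 were grouped by role into 4 genes of DNA replication, 3 of transcription, 12 of RNA processing and stability, 2 of RNA decay and 6 of translation. All samples were myotubes at day 4 of differentiation with no other allele or agent named, 4 transfected with a control siRNA and 4 with an siRNA against macroH2A1.1, a splice form of the chromatin protein macroH2A1 (a histone H2A variant) able to bind ADP-ribose. The replicates are named biological in the labels, but how cultures were grown is not given, and a p-value therefore reflects only the spread among these samples, part of which may be technical.

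Mitochondrial DNA is transcribed from both strands into long precursors, which are cut at the tRNAs into single messages, given short poly(A) tails and translated on ribosomes inside the organelle. Every protein that copies, transcribes, stabilises or translates this genome is encoded in the nucleus and imported. Myotubes rely on the resulting respiratory chain subunits, which belong to complex I (ND genes), complex III (CYTB), complex IV (COX genes) and ATP synthase (ATP genes).

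Each mitochondrial gene was read by 1 probe of 60 bases, and 4 of these are shown because they represent the largest difference, a probe with a nuclear placement, and the pair of neighbouring genes on opposite strands. They are given 5′ to 3′ as in the array files, with every G in capitals, since the message of ND6 is the only one of the 13 copied from the other strand.
ND2: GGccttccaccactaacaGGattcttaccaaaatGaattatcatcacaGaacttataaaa
COX2: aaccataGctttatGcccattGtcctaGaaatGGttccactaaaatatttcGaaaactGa
ND5: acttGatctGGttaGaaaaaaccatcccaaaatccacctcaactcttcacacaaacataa
ND6: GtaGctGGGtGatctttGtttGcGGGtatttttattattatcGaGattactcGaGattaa
The array annotation (mm9) places ND2 at chrM:4670-4729 and ND5 at chrM:13402-13461, both on the plus strand, and ND6 at chrM:13552-13611 on the minus strand. G made up 25% of the ND6 probe and 6.67% of the ND5 probe, while C made up 10% and 30%. The COX2 probe is placed on nuclear chromosome 1, at chr1:24621739-24621798 on the minus strand. So are the probes of ATP8, ATP6, COX3, ND3 and ND4L, within 2556 bases (chr1:24619243-24621798) and in the order these genes have in the mitochondrial genome, and the other 7 probes are placed on the mitochondrial genome. A message from the mitochondrial gene and one from such a nuclear copy cannot be told apart by these 6 probes.

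Values are log2 processed signals relative to the 75th percentile of each array, and a difference is macroH2A1.1 siRNA minus control siRNA on that scale. RNA was amplified from oligo-dT, so a signal depends on the poly(A) tail as well as on the amount of message. In bulk RNA of this kind, fewer cells of a type and less RNA per cell cannot be told apart. On each array 46.9% to 49.8% of 59305 non-control spots were well above background, none was saturated, and arrays correlated at 0.9815 to 0.9911. The 3 probes of the targeted gene, H2afy (now Macroh2a1), read below every control array on all 4 treated arrays, by -0.99, -1.42 and -1.11. Over the 24988 kept probes limma gave adjusted p = 0.054, 0.138 and 0.054. These became 0.023, 0.033 and 0.023 once replicate number entered the fit as a block. Which splice form each probe reads was not determined. The macroH2A1.1 siRNA replicate 2 had a first principal component score far from the others (score 60.17, others -27.4 to 7.79). Samples of the same replicate number deviated together from their group means, so each difference is also given from the fit with the number as a block, called paired below. Myotube markers were present, and all 12 were higher with macroH2A1.1 siRNA (median difference 0.42). Of these, 8 passed the threshold in the paired fit, where 4.18% of all genes tested rose, and 0 passed without pairing. The 12 tested interferon response genes were also all higher (median difference 2.34), by a median of 1.48, 3.42, 3.44 and 0.95 in pairs 1 to 4. Of these, 6 passed the threshold in the paired fit and 0 without pairing.

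No gene of the mitochondrial genome passed the test in either fit. All 13 mean differences lay above 0, between 0.05 and 0.25 with a median of 0.083, where the median over all 13692 genes tested was 0.0002 and 50% lay above 0. The 13 genes are read from common precursors on the same 8 arrays, so this shared sign is not 13 separate observations. The smallest adjusted p in limma was 0.575 in the unpaired and 0.211 in the paired fit. Without pairing the lowest end of a 95% interval was -0.30 (ND6) and the highest 0.60 (ND5), and with pairing they were -0.23 (ND6) and 0.55 (ND2).

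The complex I genes spanned the whole range of differences. In control replicates 1 to 4 ND1 read 5.35, 5.22, 5.11 and 4.86, against 5.66, 5.22, 5.19 and 5.14 with macroH2A1.1 siRNA (difference 0.17, SE 0.15). ND2 read 7.25, 7.33, 7.17 and 6.89 against 7.75, 7.17, 7.43 and 7.29, the largest mitochondrial difference at 0.25 (SE 0.15, limma adjusted p = 0.575, paired 0.241). For both genes the groups overlapped, and the lowest value was that of control replicate 4. ND3 read 6.76, 6.92, 6.90 and 6.41 against 7.05, 6.75, 6.94 and 6.72, a difference of 0.12 (SE 0.14). ND4 read 7.22, 7.16, 7.37 and 7.12 against 7.37, 7.13, 7.29 and 7.33, a difference of 0.06 (SE 0.09). ND4L, whose reading frame overlaps that of ND4 on a common message, read 6.62, 6.45, 6.71 and 6.18 against 6.74, 6.26, 6.65 and 6.56 (difference 0.06, SE 0.15). In each of these 3 genes pairs 1 and 4 were higher with macroH2A1.1 siRNA and pair 2 was lower. ND5 read 4.74, 4.38, 4.57 and 4.24 against 5.09, 4.32, 4.74 and 4.57, a difference of 0.20 (SE 0.18, limma adjusted p = 0.743, paired 0.211). ND6 read 0.94, 1.26, 1.43 and 1.18 against 1.15, 0.95, 1.44 and 1.49, the smallest mitochondrial difference at 0.05 (SE 0.15). In human cells the ND6 message carries no poly(A) tail, and no comparison of its level with that of the other probes is made here.

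Cytochrome b and the cytochrome oxidase genes differed by 0.05 to 0.14. CYTB, the complex III subunit, read 8.50, 8.45, 8.75 and 8.37 in control replicates 1 to 4 and 8.69, 8.35, 8.67 and 8.64 with macroH2A1.1 siRNA (difference 0.07, SE 0.12). COX1, the catalytic subunit of complex IV, read 9.29, 9.39, 9.52 and 9.25 against 9.57, 9.25, 9.56 and 9.30 (difference 0.05, SE 0.11). For both, control replicate 3 and macroH2A1.1 siRNA replicates 1 and 3 were among the high values, and the groups overlapped. COX2, which takes electrons from cytochrome c, read 8.85, 8.95, 9.21 and 8.76 against 9.17, 8.94, 9.19 and 9.03 (difference 0.14, SE 0.12, limma adjusted p = 0.721, paired 0.342). COX3 read 8.05, 8.16, 8.35 and 7.99 against 8.27, 8.02, 8.30 and 8.19 (difference 0.06, SE 0.11). Control replicate 3 was the highest of all 8 arrays for both genes. The ATP synthase genes ATP8 and ATP6 share a message. ATP6 read 7.34, 7.33, 7.76 and 7.27 against 7.60, 7.32, 7.64 and 7.57, a difference of 0.11 (SE 0.13). ATP8 read 6.06, 6.20, 6.48 and 6.03 against 6.38, 6.03, 6.42 and 6.26, a difference of 0.08 (SE 0.13). Again control replicate 3 was the highest array for both. Probes placed on chromosome 1 differed by a median of 0.10 (0.06 to 0.14) and probes placed on the mitochondrial genome by 0.07 (0.05 to 0.25).

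The size and sign of the mitochondrial difference varied by pair. Over the 13 genes the median difference was 0.28 in pair 1, with 13 genes above 0, and 0.28 in pair 4, again with 13 above 0. In pair 2 it was -0.13 with 1 gene above 0 (ND1, at 0.001), and in pair 3 it was -0.02 with 6 above 0. Without macroH2A1.1 siRNA replicate 2 the median over the genes moved from 0.083 to 0.158, without control replicate 3 to 0.160 and without control replicate 4 to 0.029. Without macroH2A1.1 siRNA replicate 1 it was 0.050. The sign of the median thus held in all of these, while its size rested on single arrays. The pairs with the larger mitochondrial difference, 1 and 4, were those with the smaller interferon response difference. They were also those where 7 tested markers of cycling myoblasts had a median difference below 0 (-0.27 and -0.34). In pairs 2 and 3 that median was 0.23 and 0.07. With 4 pairs neither relation was tested.

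**Figure D1:**
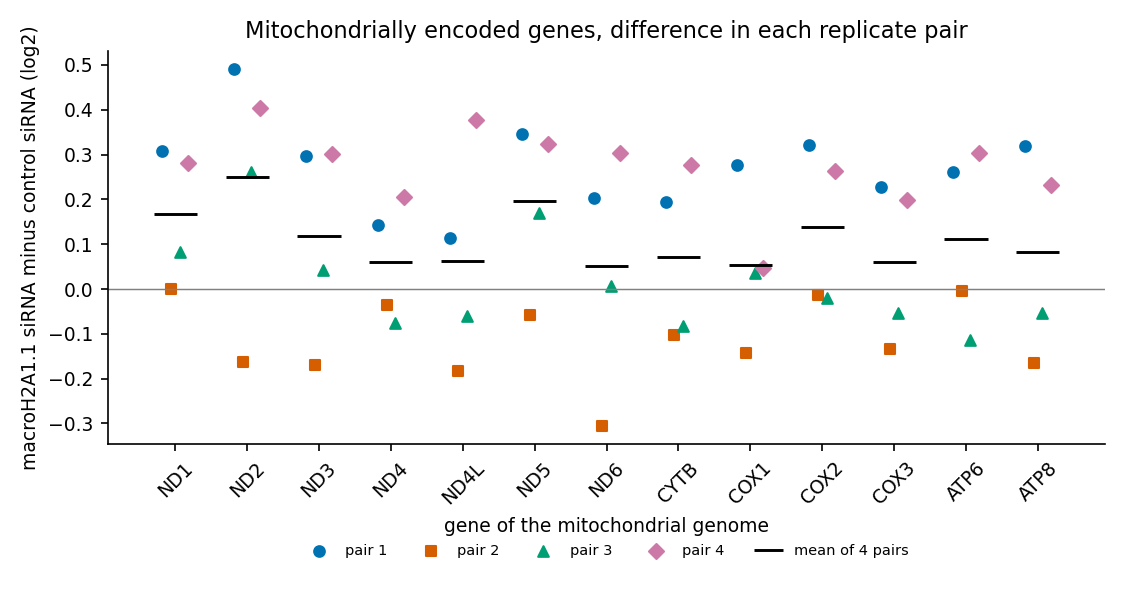
The difference between macroH2A1.1 siRNA and control siRNA (log2, vertical axis) is plotted for each gene of the mitochondrial genome (horizontal axis), with 1 symbol for each replicate pair and a black line for the mean of the 4 pairs. Pairs 1 and 4 lie above 0 for all 13 genes, pair 2 lies below 0 for all but ND1, and pair 3 lies above 0 for 6 genes.

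The mitochondrial messages varied together across arrays. Over the 78 pairs of these genes the correlation across the 8 arrays had a median of 0.725, and over the 325 pairs of tested nuclear members a median of 0.167. The 8 arrays share the group difference and each array's normalization, and the values are descriptions without a test. The highest correlation was 0.996, between COX3 and ATP8, whose probes are both placed on chromosome 1. ND4 and CYTB, whose probes are both placed on the mitochondrial genome, correlated at 0.979. The lowest was -0.309, between ND1 and ND6. ND1 (median 0.429 with the other 12) and ND6 (median 0.527) followed the rest least closely, and CYTB and COX3 followed it most closely (0.839 and 0.844).

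Of the 27 nuclear members 26 could be tested. The single probe of Fastkd2, an RNA-binding protein of the mitochondrial RNA granule, was well above background on 1 array only, where its spot was marked as an outlier, and it has no value here. Without pairing 0 of the 39 tested members passed (limma adjusted p under 0.05), against 0.0219% of all genes tested. In that fit 4 members were higher with an unadjusted p under 0.05 (6.34% of all genes were), and 0 were lower (5.77%). With pairing 2 members rose (5.13%), Slirp and Gfm2, where 4.18% of all genes tested passed in that direction, and 0 fell, where 3.94% did. With an unadjusted p under 0.05 in the paired fit, 7 members were higher and 2 lower, against 14.5% and 13.5% of all genes. The share of members that rose in the paired fit is near that of all genes. The groups did not overlap for 5 members (12.8%), all higher with macroH2A1.1 siRNA, against 4.22% of all genes, and for 0 members that were lower, against 3.7%. The median difference of the 26 nuclear members was 0.013, with 14 above 0.

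**Figure D2:**
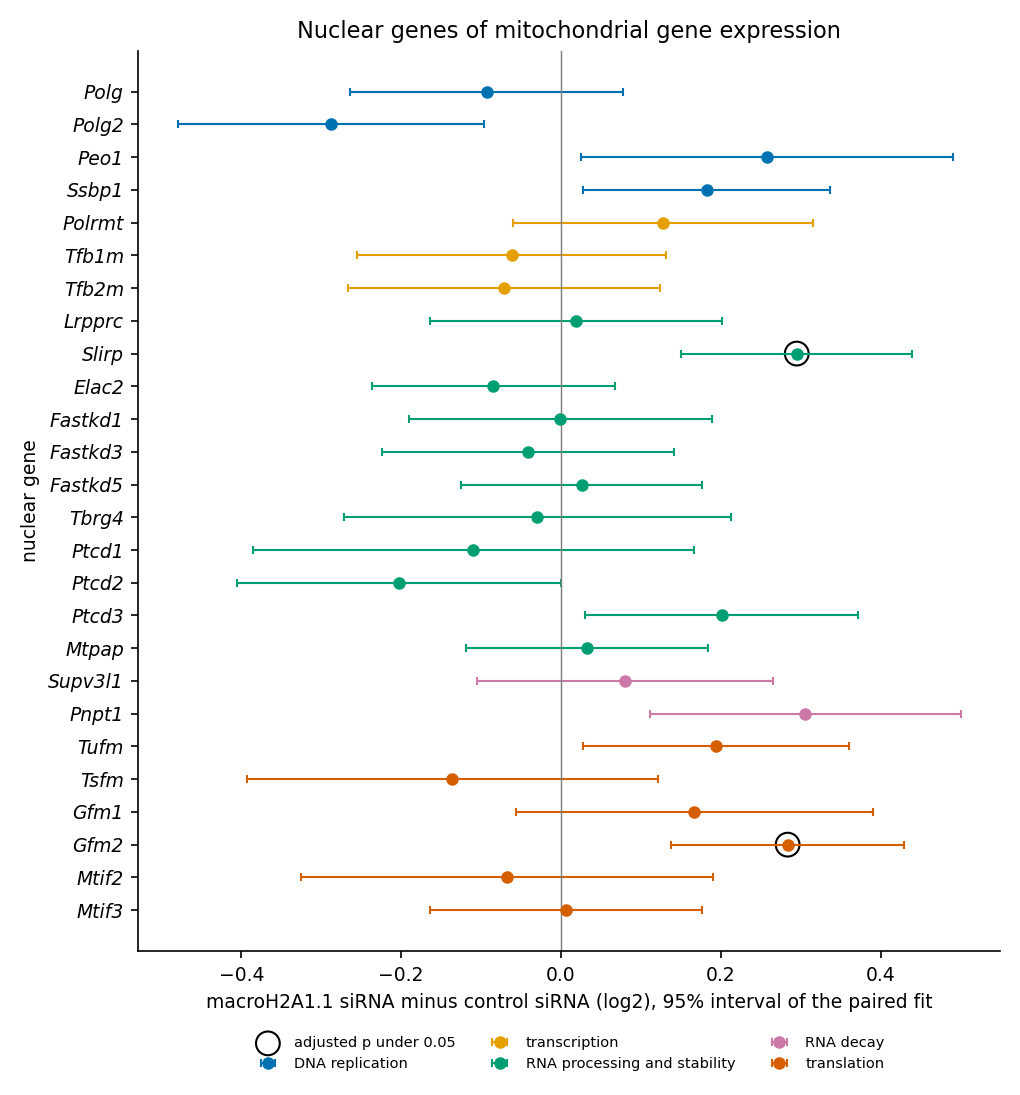
Differences between macroH2A1.1 siRNA and control siRNA (log2, horizontal axis) with the 95% interval of the paired fit are plotted for the 26 tested nuclear genes (vertical axis), coloured by role, and circles mark an adjusted p under 0.05. Slirp at 0.29 and Gfm2 at 0.28 are circled, and most other intervals include 0.

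Slirp encodes a small RNA-binding protein that stabilises mitochondrial messages in a complex with Lrpprc. Its probe read 4.15, 4.28, 4.18 and 4.10 in control replicates 1 to 4 and 4.53, 4.53, 4.42 and 4.41 with macroH2A1.1 siRNA. Every treated array was above every control array, and the difference was 0.29 (SE 0.08), or 22.7% more signal. Limma gave an adjusted p of 0.213 without pairing and 0.044 with it (SE 0.06). The exact two-sided permutation test gave p = 0.0286 over the 8 arrays and 0.125 within pairs, which are the smallest p-values these designs can give. The paired call held in 6 of 12 paired settings (adjusted p 0.018 to 0.162 over the other 11), and leaving out pair 1, 2, 3 or 4 ended it, with limma adjusted p = 0.162, 0.110, 0.126 and 0.090. Without pair 1 or 3 that fit called 0 of all genes tested, and without pair 2 or 4 it called 134 or 601. The loss without pair 1 or 3 is therefore not particular to Slirp. Slirp has 1 probe on the array. Lrpprc, its partner, read 4.41, 4.40, 4.48 and 4.31 against 4.56, 4.47, 4.31 and 4.33, a difference of 0.02 (paired SE 0.07, 95% interval -0.16 to 0.20). Lrpprc was higher in 3 pairs and lower in pair 3, and its groups overlapped.

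Among the other processing and stability factors, Ptcd3 and Ptcd2 are pentatricopeptide repeat proteins. Ptcd3, which sits on the small mitochondrial ribosomal subunit, read 4.12, 3.93, 4.05 and 3.85 against 4.39, 4.22, 4.07 and 4.07 (difference 0.20, paired SE 0.07, limma adjusted p = 0.502, paired 0.132). It was higher in every pair, though by only 0.03 in pair 3. Ptcd2, which is needed for the cytochrome b message in mice, read 2.21, 2.14, 2.36 and 2.53 against 1.81, 2.12, 2.07 and 2.42 (difference -0.20, paired SE 0.08, limma adjusted p = 0.658, paired 0.179). It was lower in every pair while its groups overlapped, and CYTB itself differed by 0.07. The remaining tested members of this role were the tRNA 3′ processing enzyme Elac2, the FAST kinase proteins Fastkd1, Fastkd3, Fastkd5 and Tbrg4, the pentatricopeptide repeat protein Ptcd1 and the mitochondrial poly(A) polymerase Mtpap. Their differences lay between -0.11 (Ptcd1) and 0.03 (Mtpap), and none passed in either fit. The brightest Elac2 probe differed by -0.08, and its other probes by -0.09 and 0.25 (paired SE 0.06 and 0.08). The last of these was higher in every pair (limma paired adjusted p = 0.140).

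The RNA decay genes encode the helicase Supv3l1 and the exonuclease Pnpt1, which together degrade mitochondrial RNA. Pnpt1 read 1.02, 1.06, 1.13 and 1.19 in control replicates 1 to 4 and 1.38, 1.53, 1.43 and 1.28 with macroH2A1.1 siRNA. All treated arrays were above all control arrays, and the difference of 0.31 (SE 0.08) was the largest of the nuclear members. It did not pass (limma adjusted p = 0.229, paired 0.072), and the exact permutation test gave p = 0.0286 over the arrays and 0.125 within pairs. A second Pnpt1 probe differed by 0.23 (paired SE 0.11). In human cells PNPT1 is induced by type I interferon. By pair Pnpt1 differed by 0.35, 0.47, 0.31 and 0.09, beside the interferon response differences of 1.48, 3.42, 3.44 and 0.95, and the part of that response in this value was not tested. Supv3l1 differed by 0.08 (paired SE 0.07).

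**Figure D3:**
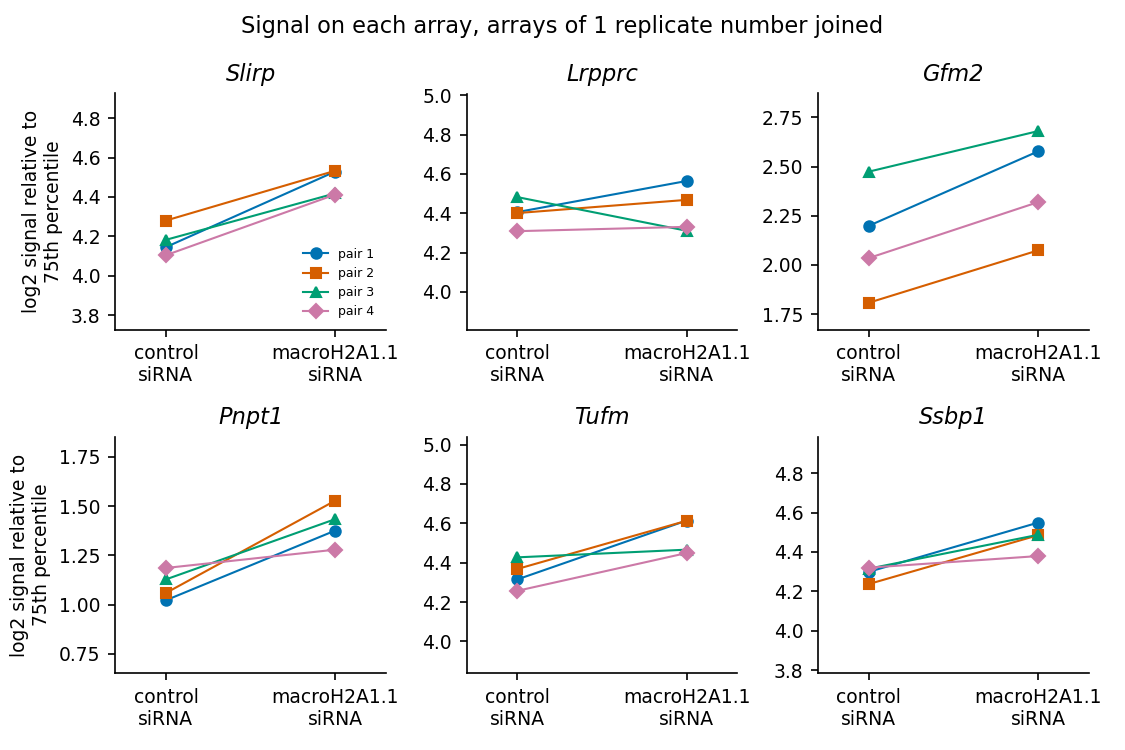
Log2 signal relative to the 75th percentile of each array (vertical axes, each spanning 1.2 log2 units) is plotted for control siRNA and macroH2A1.1 siRNA, with arrays of the same replicate number joined. Slirp, Pnpt1, Tufm and Ssbp1 are higher on every treated array than on any control array, Gfm2 rises in each pair while its groups overlap, and Lrpprc goes down in pair 3.

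Among the translation members, 1 rose in the paired fit. Gfm2, the factor that with the recycling factor splits mitochondrial ribosomes after termination, read 2.20, 1.81, 2.47 and 2.04 against 2.58, 2.07, 2.68 and 2.32. The groups overlapped, but each pair moved by a similar amount (0.38, 0.27, 0.21 and 0.28). The difference was 0.28, with an SE of 0.18 and limma adjusted p of 0.601 without pairing, and an SE of 0.06 and adjusted p of 0.048 with it. This call held in 5 of 12 paired settings (adjusted p 0.015 to 0.306 over the other 11) and was lost without pair 1, 2, 3 or 4 (limma adjusted p = 0.175, 0.126, 0.127 and 0.096). As for Slirp, the loss without pair 1 or 3 is not particular to the gene, since 0 of all genes passed there. The exact permutation test gave p = 0.2 over the arrays and 0.125 within pairs. The other Gfm2 probe differed by -0.03 (paired SE 0.10), so the call rests on 1 probe of the gene.

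None of the elongation factors passed, and they did not share a sign. Tufm, which delivers aminoacyl-tRNA to the ribosome, read 4.32, 4.37, 4.43 and 4.26 against 4.61, 4.61, 4.47 and 4.45 (difference 0.19, paired SE 0.07, limma adjusted p = 0.397, paired 0.134). Its groups did not overlap, and its second probe differed by 0.24. The annotation places the brighter Tufm probe, which stood for the gene, on chromosome 8. It places the other, whose target is a RefSeq transcript, on chromosome 7. Whether the brighter probe reads a message from another place in the genome was not tested. Gfm1, the translocase of elongation, read 3.89, 3.73, 3.91 and 3.96 against 4.05, 4.18, 3.96 and 3.97 (difference 0.17, paired SE 0.09, limma adjusted p = 0.513, paired 0.288). Its groups did not overlap either, but the gap was small and pair 2 held most of the difference (0.45). Tsfm, the exchange factor of Tufm, differed by -0.14, and the initiation factors Mtif2 and Mtif3 by -0.07 and 0.01, with no call.

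The replication members did not move one way. Polg2, the accessory subunit of the mitochondrial DNA polymerase, read -0.01, 0.01, 0.51 and 0.03 in control replicates 1 to 4 and -0.31, -0.20, 0.01 and -0.12 with macroH2A1.1 siRNA. It was lower in every pair, the difference was -0.29 (paired SE 0.08, limma adjusted p = 0.452, paired 0.079), and control replicate 3 lay well above the other controls. With normexp and quantile normalization together, and with the authors' series values, it passed in the paired fit, while its other probe differed by 0.06 (paired SE 0.21). Polg, the catalytic subunit, differed by -0.09 (paired SE 0.07). Peo1 (now Twnk), the replicative helicase, read -1.38, -1.89, -1.11 and -1.51 against -1.06, -1.45, -1.15 and -1.21 (difference 0.26, paired SE 0.09, limma adjusted p = 0.626, paired 0.148). It was higher in 3 pairs, and the groups overlapped. Ssbp1, the single-strand binding protein, read 4.30, 4.24, 4.32 and 4.32 against 4.55, 4.49, 4.49 and 4.38 (difference 0.18, paired SE 0.06, limma adjusted p = 0.373, paired 0.130). These groups did not overlap, but its 3 other probes differed by 0.06, -0.20 and -0.16. Among the transcription members, the RNA polymerase Polrmt differed by 0.13, and the dimethyladenosine transferases Tfb1m and Tfb2m, of which Tfb2m opens the promoter, by -0.06 and -0.07, with no call.

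**Figure D4:**
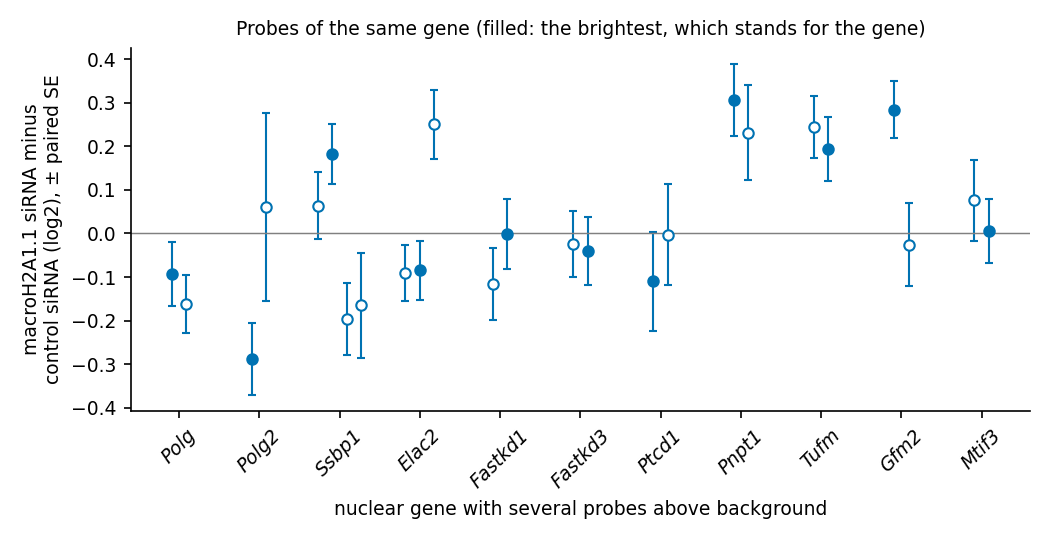
The difference of each probe above background (log2, vertical axis, ± SE of the paired fit) is plotted for the 11 nuclear genes with several such probes, with the brightest probe of a gene filled. The probes of Polg2, Ssbp1, Elac2 and Gfm2 lie on both sides of 0, while those of Pnpt1 and Tufm lie on the same side.

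The promoters of the members that rose in the paired fit are shown for motifs of factors known to act on nuclear genes of mitochondrial function. Motifs were searched on both strands from 250 bases before to 50 after the start site as GCGCANGCG (NRF1), CCGGAAG (ETS factors such as GABP) and AAGATGGCG (YY1). The 250 bases before each start site are printed 5′ to 3′ from RefSeq (GRCm38.p6), with matches in capitals.
Slirp: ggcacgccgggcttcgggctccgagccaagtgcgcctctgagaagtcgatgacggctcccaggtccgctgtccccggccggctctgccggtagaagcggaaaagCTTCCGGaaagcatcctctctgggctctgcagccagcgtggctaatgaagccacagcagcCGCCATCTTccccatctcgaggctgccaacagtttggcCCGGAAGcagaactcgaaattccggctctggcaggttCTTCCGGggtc
Gfm2: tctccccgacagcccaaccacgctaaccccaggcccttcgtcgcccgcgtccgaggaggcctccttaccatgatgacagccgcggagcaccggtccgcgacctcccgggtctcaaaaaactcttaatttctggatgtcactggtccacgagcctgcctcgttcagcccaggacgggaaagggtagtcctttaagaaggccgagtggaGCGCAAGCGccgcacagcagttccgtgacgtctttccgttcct
They lie on the plus strand at chr12:87443646-87443895 and chr13:97137687-97137936. The Slirp stretch holds 3 ETS matches and 1 YY1 match, and the Gfm2 stretch 1 NRF1 match, with no overlap between matches. Of the 25 nuclear members with a promoter in RefSeq's table, 12 (48%) held the ETS letters, where 19.1% of the promoters of tested genes and 9.93% of those of all genes did. The NRF1 letters were in 6 (24%, against 14.4% and 7.03%) and the YY1 letters in 4 (16%, against 3.44% and 1.64%), the latter Slirp, Tbrg4, Ptcd2 and Ptcd3. Ptcd2 was lower and Ptcd3 higher with macroH2A1.1 siRNA, neither past the threshold. Of 68 mitochondrial ribosomal protein genes (Mrpl or Mrps symbols) with a promoter, 26 held the ETS letters, 16 the NRF1 letters and 7 the YY1 letters. The frequent matches are therefore not particular to the members. The NRF1 and YY1 letters were each shortened by 1 base after the counts for 10 letters had been seen. Those longer forms were in 4 members (10.9% of tested genes) and 3 members (2.29%). A match describes the letters and not a bound site.

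Other genes of the same machinery were read from lists of mitochondrial DNA maintenance, RNA factors, translation factors and tRNA synthetases, 81 of 83 of which were tested (Nars2 and Mtrfr were not). Without pairing 0 passed, and with pairing 4 rose (4.94%, where 4.18% of all genes tested did) and 0 fell. Mrrf, the ribosome recycling factor that works with Gfm2, read 0.23, -0.32, 0.05 and -0.14 in control replicates 1 to 4 and 0.80, 0.05, 0.59 and 0.12 with macroH2A1.1 siRNA. It was higher in every pair with overlapping groups, by 0.44 (paired SE 0.08, limma adjusted p = 0.424, paired 0.034). The other 3 were mitochondrial tRNA synthetases, which charge tRNAs with methionine (Mars2), leucine (Lars2) and cysteine (Cars2). Mars2 read -1.79, -2.16, -1.88 and -1.90 against -1.19, -1.55, -1.45 and -1.53 (difference 0.51, limma adjusted p = 0.161, paired 0.022). Lars2 differed by 0.38 (limma paired adjusted p = 0.033) and Cars2 by 0.39 (limma paired adjusted p = 0.045), and for all 3 synthetases the groups did not overlap. Over the 81 genes the groups did not overlap for 5 that were higher (6.17%), against 4.22% of all genes. The same held for 2 that were lower, 1 of them a synthetase, against 3.7% of all genes.

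In the remaining lists no gene passed. The smallest p-values among 16 maintenance genes were those of Dguok, a mitochondrial deoxynucleoside kinase (difference -0.22, paired adjusted p = 0.098), and Primpol, a primase-polymerase (-0.33, 0.149). Among 31 RNA factors they were those of Lactb2, a mitochondrial endonuclease (0.26, 0.062), and Angel2, a phosphatase of RNA ends (-0.22, 0.095). Tfam, which packages mitochondrial DNA and activates its promoters, differed by 0.11 (paired SE 0.07, paired adjusted p = 0.370), and is named outside the rule for its place in the pathway. The mitochondrial ribosomal proteins, 77 genes with Mrpl or Mrps symbols, had a median difference of 0.11 with 66 above 0, and 2 of them (2.60%) rose in the paired fit. Their difference from the nuclear members (median 0.013, 14 of 26 above 0) was not tested.

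Markers of cell types and of the interferon response were read on the same arrays. In pairs 1 to 4 the myotube markers differed by a median of 0.38, 0.52, 0.45 and 0.32. The mitochondrial genes differed by a median of 0.28, -0.13, -0.02 and 0.28 in the same pairs. Fibroblast markers had a median difference of -0.24 (7 tested, 1 above 0), and Postn and Col1a2 fell in the paired fit. They did not move as a whole, since Pdgfra was higher in every pair (difference 0.19), and Col3a1 and Dcn differed by -0.08 and -0.09. The summed level of the 12 myotube markers ranged from 10.78 to 11.28 on the log2 scale in control samples and from 11.12 to 11.73 with macroH2A1.1 siRNA, and that of the 12 interferon response genes from 2.48 to 3.09 and from 2.89 to 6.45. Of 10 markers of cycling myoblasts 7 were tested, with a median difference of -0.04 and none past the threshold. That median covers opposite signs, since by pair it was -0.27, 0.23, 0.07 and -0.34, with 1, 7, 5 and 0 genes above 0. The Myf5 probe was well above background on 0 arrays and the Pax7 probe on 6 of 8, with no complete group. Macrophage markers had a median difference of -0.04 (5 of 7 tested, 2 above 0), and the probe of the pan-leukocyte marker Ptprc was well above background on 0 arrays. Cd68 stood apart with a difference of 1.315 (0.56, 2.12, 2.25 and 0.33 in pairs 1 to 4), not past the threshold in either fit. Itgam read 3.86 to 4.42 over the arrays and differed by 0.02. The part of these markers in the differences of Slirp, Gfm2 and the mitochondrial genes was not tested.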

How the data were processed

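RNA of 8 samples (500 ng each, per the labels' protocols) was labelled with Cy3 and read on 1-colour Agilent arrays. Spot intensity values were made by the authors in Agilent Feature Extraction 10.7.3.1 (mm9 design), per the file headers, and the processed intensity used here has background already subtracted. The deposited series values from the authors are on a log2 scale, which was inferred, since each column tracked the log2 mean signal of its array (r 0.9976 to 0.9995). All columns had a median of 6.29, and their background handling is unknown. One characteristic says knockout for the treated samples. The titles and design say siRNA, and that reading was used.

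Each array's log2 processed intensity was set relative to its 75th percentile, outlier spots were treated as missing, and repeated spots were averaged. A probe was kept when well above background on the 4 arrays of either group (24988 of 55681 probes), and the brightest kept probe stood for its gene (13692 genes, 3887 of them with several). RefSeq (GRCm38.p6, for names only) supplied symbols by accession for 27509 probes, by symbol for 3549 and by synonym for 404, while 1350 kept the name in the file. Of 56 member probes 53 were kept, and every tested member was well above background on all 8 arrays. Testing used limma 3.58.1 (R 4.3.3; lmFit, then eBayes; two-sided; Benjamini-Hochberg across all genes; threshold 0.05), first unpaired and then blocked on replicate number.

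Same-numbered samples departed from their group means together (correlations 0.61, 0.55, 0.66 and 0.41, each over 0.1), and the numbers were taken as pairs. These arrays are also neighbours on the single slide, so culture and position cannot be told apart. All control arrays lay in columns 1 and 3 of the slide and all treated arrays in columns 2 and 4. An effect of the column therefore cannot be told apart from that of the siRNA, and the fit with the column as a random block cannot remove it. The 40 members and the other lists were chosen with earlier results of these data known. Per-array values are given for the mitochondrial genes, the members past the threshold in either fit and the 8 other nuclear members of smallest paired p. The fit was tested on simulated data. Python 3.11.15, pandas 2.3.3 and matplotlib 3.10.9 were used for tables and plots. The alternatives were median centring, quantile normalization, normexp (offset 50) with quantile normalization, the series values, no probe filter, a filter on all 8 arrays, averaging a gene's probes, the replicate block alone and with each of these, array row or column as a block, trended robust eBayes, array weights, and dropping each array or pair.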

Additional observations from a re-analysis of the deposited data

Results flagged for a closer look

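Each group of 4 was examined for a sample whose gap to its nearest neighbour exceeded Dixon's 95% critical value. Of 78 groups 7 held such a sample, and chance gives about 1 in 20.

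Among mitochondrial genes, ND1 was highest in macroH2A1.1 siRNA replicate 1 (5.657, others 5.137 to 5.22), CYTB was lowest in macroH2A1.1 siRNA replicate 2 (8.349, others 8.643 to 8.694), and ATP6 was highest in control replicate 3 (7.755, others 7.267 to 7.337). Among nuclear members, control replicate 3 was also highest for Polg2 (0.5068, others -0.01152 to 0.02504) and for the tRNA processing enzyme Elac2 (1.976, others 1.675 to 1.685). Fastkd1 was lowest in control replicate 2 (-0.06226, others 0.2698 to 0.3132), and the elongation exchange factor Tsfm was highest in macroH2A1.1 siRNA replicate 2 (2.346, others 1.842 to 1.893), the array that stood apart on the first principal component. No cause of these values was tested.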

How the results depend on the processing

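The median difference of the mitochondrial genes stayed above 0 in all 31 alternatives (0.029 to 0.166), and that of the nuclear members lay between -0.021 and 0.065. No member passed in any setting without the replicate block. Over the 31 alternatives, 15 members changed sign, 3 of them mitochondrial (ND4L, ND6 and COX1) and 12 nuclear, none of them past the threshold, and Slirp, Gfm2, Pnpt1, Tufm and Polg2 kept theirs.

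Without pairing 3 of all genes passed. This count was 1 with median centring, 5 with probes well above background on all 8 arrays, 10 with the array row as a block, 7 with the array column as a random block, 7 with array weights, and 0 to 11 when a single array was left out (11 without macroH2A1.1 siRNA replicate 4; 0 when the array dropped was macroH2A1.1 siRNA replicate 1, 2 or 3, or control replicate 1 or 2).

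With the replicate block 1112 genes and 2 members passed. The block combined with normexp and quantile normalization together gave 1816 genes and 3 members, with quantile normalization alone 1060 and 2, with median centring 795 and 0, with the authors' series values 1714 and 3, with no filter 0 and 0, with the stricter filter 1348 and 2, and with the mean of a gene's probes 946 and 1 (Slirp). The third member, with normexp and quantile normalization together and with the series values, was Polg2. Leaving out a pair from the blocked fit gave 0 to 601 genes (0 without pair 1 or 3, 134 without pair 2, 601 without pair 4) and 0 members each time, with fewer samples. The cause of the other changes was not tested. The number of arrays and the spread between pairs limit these values, and the probe that stood for each tested member was well above background on all 8 arrays.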
